A study of Mus musculus with 4 samples.

Results

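The 10 symbols listed below name the enzymes and cofactors that place, copy and remove DNA methylation, and all 10 were found once each among the 40999 features of the files. They are Dnmt1 and Uhrf1, which copy methylation onto the new strand after replication, Dnmt3a, Dnmt3b and Dnmt3l, which place it anew, Tet1, Tet2 and Tet3, which oxidize it, Tdg, which cuts the oxidized base out, and Prmt5, an arginine methyltransferase. Dnmt3l has no catalytic activity of its own and Uhrf1 and Prmt5 do not methylate DNA, so the group holds cofactors as well as enzymes.

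In mammals, cytosines of CpG pairs carry methyl groups that keep many promoters and transposons silent. Primordial germ cells lose most of this methylation around the time they enter the gonad, by dilution through replication when maintenance is weak and by oxidation through the Tet enzymes. Male germ cells begin to regain it before birth, with Dnmt3a and its cofactor Dnmt3l, while female germ cells stay low until the oocyte grows. Germ cells are a minority of the fetal gonad, and the other cells keep and copy their methylation at each division.

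Gonads of wild-type C57BL/6J mice were collected once a day from E11.5 to E14.5, and XX and XY gonads of a day were pooled. A pool drew on 2 litters and held 6 or more gonads of each sex, and 1 library was built per day from 1 μg of total RNA, so no day has a replicate and the sexes cannot be told apart. The mesonephros, the neighbouring fetal kidney, was included at E11.5 and dissected away from E12.5 on, so that day and tissue cannot be told apart between E11.5 and E12.5. From the earliest to the latest day the deduplicated counts were 31266481, 25593453, 31752562 and 31526303 in total. The 18S ribosomal RNA gene Rn18s-rs5 took 9.06%, 1.31%, 1.03% and 40.7% of these counts in that order. Ribosomal RNA of nuclear and mitochondrial genes together took 17.8%, 8.90%, 8.73% and 48.9%.

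Of the 10 members, 9 had fewer counts at E14.5 than on any earlier day, and whether the ribosomal share accounts for this was not tested. Levels between days were put on a common scale with TMM factors and are given as scaled CPM, which are counts relative to the scaled size of the library. Scaling by total counts in place of TMM shifted the median log2 fold change of all tested genes to 0.16 for E12.5 versus E11.5, 0.03 for E13.5 versus E12.5, −1.07 for E14.5 versus E13.5 and −1.04 for E14.5 versus E12.5. Every change is reported relative to the median gene, where TMM places it. A gene was said to have risen or fallen when its scaled counts differed at least 2-fold and the exact Clopper-Pearson 95% interval of the ratio lay on one side of equality. These intervals, and the Poisson intervals of single levels, cover counting error only, and the differences between days have no replicate check.

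Dnmt3l, the germline cofactor of de novo methylation, was the one member that rose past 2-fold, and it did so at E14.5. Between E12.5 and E11.5, 0 of the 9 members tested passed, against 16.2% of 19215 tested genes, 7.92% of them higher and 8.29% lower. Between E13.5 and E12.5, 0 of 9 passed, against 3.91% of 19152 genes, 2.53% higher and 1.37% lower. Between E14.5 and E13.5, 1 of 10 rose and 0 fell, against 7.32% of 18992 genes, 5.9% higher and 1.43% lower. Between E14.5 and E12.5, a comparison that shares its libraries with both steps, 1 of 10 rose and 0 fell, against 10.4% of 18704 genes, 7.97% higher and 2.38% lower. With 9 or 10 members tested, such counts are close to the shares of all genes and set the group apart in no comparison. Dnmt3l had too few counts to be tested in the first 2 comparisons, and it entered the others through the library in which it was high.

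The median log2 fold change of the tested members was −0.16, −0.13 and −0.12 over the 3 steps in order of age and −0.16 for E14.5 over E12.5, where the median of all tested genes lay between −0.00 and 0.01. How many members pass at E14.5 depends on the scaling. With total counts, 8 members were past 2-fold lower between E14.5 and E13.5 and 7 between E14.5 and E12.5, and with the ratio of the deposited TPM 9 were lower in each, Dnmt3l being higher throughout.

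**Figure D1:**
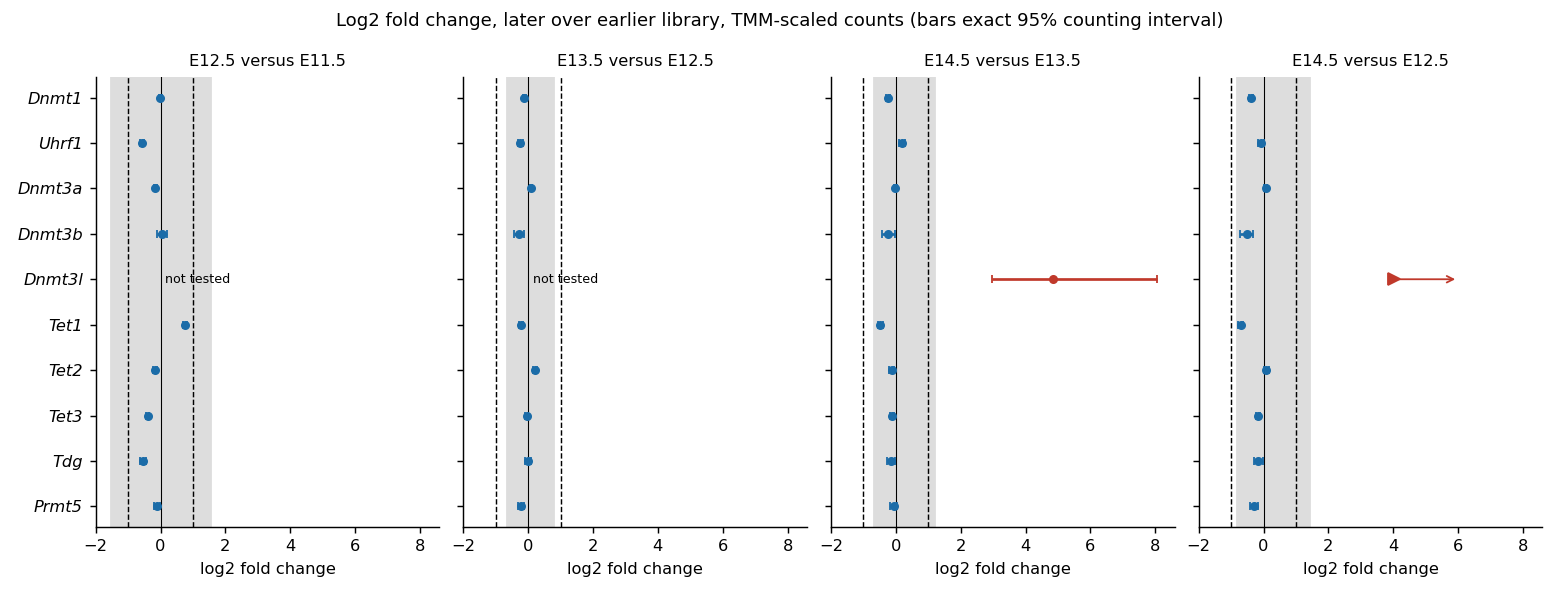
Log2 fold change of each of the 10 genes (horizontal axis, later over earlier library, TMM-scaled counts) in the 4 comparisons. Bars are exact 95% counting intervals, dashed lines mark 2-fold and the grey band holds the middle 90% of all tested genes. Red marks a gene past 2-fold and the arrow a fold set against the floor of 3 counts. Dnmt3l at E14.5 lies outside the dashed lines, and the other tested members lie between them.

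Dnmt1, the maintenance methyltransferase (chr9:20907205-20959888, minus strand, mm10, 6326 exonic bases), had 7380, 6741, 7808 and 3071 counts from E11.5 to E14.5. In scaled CPM that is 215 (Poisson 95% interval 210–220), 215 (210–220), 197 (193–202) and 163 (157–169), in order of age. On this scale the first 2 days were level with each other within counting error, and each later day was lower than the one before. The log2 fold change was −0.13 (−0.17 to −0.08) between E13.5 and E12.5 and −0.26 (−0.32 to −0.20) between E14.5 and E13.5, both short of 2-fold. Against E12.5, E14.5 stood at −0.39. With total counts the value of E12.5 versus E11.5 was 0.16, and with the ratio of deposited TPM 0.28. That of E13.5 versus E12.5 was 0.007 with the ratio of deposited TPM. For E14.5 versus E13.5, total counts gave −1.34 and the ratio of deposited TPM −1.89, both past 2-fold lower. The course over the days therefore depends on the scaling.

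Uhrf1, which reads hemimethylated CpG and brings Dnmt1 to it (chr17:56303337-56323486, plus strand, 3651 exonic bases), had 4665, 2856, 3039 and 1618 counts. On the common scale these are 136 CPM (132–140), 91.0 (87.7–94.4), 76.8 (74.1–79.6) and 86.0 (81.8–90.3). E11.5 stood above the 3 later days, which spanned 1.19-fold among themselves. The ratio of E12.5 to E11.5 was 0.669 (0.638–0.701), and the log2 fold changes of the next 2 steps were −0.25 and 0.18, with −0.07 for E14.5 over E12.5. For E14.5 over E13.5 total counts gave −0.90 and the ratio of deposited TPM −1.46, so this direction depends on the scaling. A ratio of 2 genes within 1 library does not depend on the scaling between libraries. Per exonic base, the E11.5 ratio of Uhrf1 to Dnmt1 had an interval of 1.06 to 1.14, and the later days gave 0.734 (0.702–0.767), 0.674 (0.646–0.703) and 0.913 (0.859–0.970). The ratio was thus lowest on the 2 middle days, whose intervals touch, and the intervals of E11.5 and E14.5 lay apart from both and from each other.

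Dnmt3a, the de novo methyltransferase with the most counts here (chr12:3805604-3914443, plus strand, 11005 exonic bases), had 11335, 9268, 12462 and 5763 counts. Scaled, this is 331 CPM (325–337), 295 (289–301), 315 (309–321) and 306 (298–314) from E11.5 to E14.5. They spanned 1.12-fold, the narrowest span of the members with counts in every library, and the steps had log2 fold changes of −0.16, 0.09 and −0.02, with 0.06 for E14.5 over E12.5. The first step was −0.002 with total counts and 0.12 with the ratio of deposited TPM. E14.5 over E12.5 was −0.99 with total counts, so both directions depend on the scaling. Relative to Dnmt1, per exonic base, Dnmt3a stood at 0.883 (0.857–0.909), 0.790 (0.766–0.816), 0.917 (0.892–0.944) and 1.08 (1.03–1.13) on the 4 days. E14.5 was the one day on which Dnmt3a was above Dnmt1 per length.

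Dnmt3b, the second catalytic de novo enzyme (chr2:153649403-153687730, plus strand, 5793 exonic bases), was a minor transcript, with 720, 685, 713 and 284 counts. In scaled CPM it stood at 21.0 (19.5–22.6), 21.8 (20.2–23.5), 18.0 (16.7–19.4) and 15.1 (13.4–17.0). The intervals of E11.5 and E12.5 overlap, and the log2 fold change from E12.5 to E14.5 was −0.52 (−0.73 to −0.32), which is short of 2-fold with TMM. Total counts gave −1.57 and the ratio of deposited TPM −2.02, both past 2-fold lower. Step by step the TMM values were 0.06, −0.28 and −0.24. Per exonic base Dnmt3b held 0.121, 0.140, 0.109 and 0.0936 of the Dnmt3a level, in order of age. Dnmt3c, a rodent duplicate of Dnmt3b, shares a stretch of 1655 bases with it at 93.3% identity and was not analysed here, so reads of the shared stretch are uncertain.

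Dnmt3l (chr10:78042287-78063622, plus strand, 2670 exonic bases) had 0, 0, 2 and 29 counts from the earliest to the latest day. The E14.5 level was 1.54 scaled CPM (1.03–2.21), and the 2 counts of E13.5 were 0.0505 (0.00612–0.183). For the libraries with 0 the floor was set at 3 counts, or 0.0959 CPM of total counts for E11.5 and 0.117 for E12.5. E14.5 was the one library in which the gene was clearly detected. The ratio of E14.5 to E13.5 was 30.9 with a counting interval of 7.81 to 267. With TMM scaling, the 29 counts of E14.5 stood 16.2-fold above a floor of 3 counts at E12.5. That figure has no counting error and is not the limit of an interval. In CPM of total counts the level at E14.5 was 0.920 and the floor at E12.5 was 0.117, so the figure is smaller with that scaling. The intervals of the scaled levels, 1.03–2.21 at E14.5 and 0–0.118 at E12.5, lie apart. In deposited TPM, where every other member was lower at E14.5 than at E13.5, Dnmt3l went from 0.0390 (0.00472–0.141) to 0.387 (0.259–0.555). Scaled by total counts, its log2 fold change was 3.79 in place of 4.83, and with a prior count of 2 it was 3.77, so the size of the ratio depends on these choices. The call between E14.5 and E13.5 was lost with an edgeR exact test at a preset biological coefficient of variation of 0.4, while that between E14.5 and E12.5 was kept. With a filter of at least 10 counts in both libraries the gene was not tested.

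At that level Dnmt3l was still scarce beside its partner. Per exonic base it stood at 0.0207 of Dnmt3a at E14.5 (0.0139–0.0298), against 0.000661 at E13.5 (0.0000801–0.00239). It made up 1.02% of the summed TPM of the 4 Dnmt genes at E14.5, where Dnmt3a made up 49.0%, Dnmt1 45.4% and Dnmt3b 4.59%. Aire, which overlaps it on the other strand without sharing an exonic base, had 31, 8, 5 and 0 counts over the same days. With TMM scaling, Dnmt3l was the one member whose level spanned at least 2-fold. Over the 4 libraries, the genes with the most similar pattern of centred log2 CPM, among 14070 genes with at least 100 counts in their highest library, were Rad21l, Ankrd31 and Gm884. Their root mean square differences from it were 0.996, 1.21 and 1.25 on the log2 scale, and these depend on the prior count because Dnmt3l was at 0 in 2 libraries. Rad21l had 3, 1, 10 and 131 counts, Ankrd31 2, 6, 40 and 136, and Gm884 3, 7, 27 and 157. The nearest other member, Tet2, was 3.56 away.

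The sequence around the annotated starts of Dnmt3l is shown because this gene carries the one call and because CpG pairs are the substrate of the enzymes described here. RefSeq (GRCm38.p6, the mm10 assembly) lists 3 starts for it, and the windows run from 250 bases before a start to 50 after it. The counts are summed over a gene and do not tell which start was used, and methylation itself was not measured. The window of Dnmt3b, which has 1 listed start, is given beside them. CpG pairs are in capitals.

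Dnmt3l, start 1, chr10:78042037-78042336, plus strand: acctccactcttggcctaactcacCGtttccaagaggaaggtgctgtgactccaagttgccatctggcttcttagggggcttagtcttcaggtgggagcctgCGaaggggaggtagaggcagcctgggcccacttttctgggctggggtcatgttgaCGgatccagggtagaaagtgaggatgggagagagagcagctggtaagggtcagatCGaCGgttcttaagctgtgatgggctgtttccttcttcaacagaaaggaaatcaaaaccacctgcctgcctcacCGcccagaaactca
Dnmt3l, start 2, chr10:78049592-78049891, plus strand: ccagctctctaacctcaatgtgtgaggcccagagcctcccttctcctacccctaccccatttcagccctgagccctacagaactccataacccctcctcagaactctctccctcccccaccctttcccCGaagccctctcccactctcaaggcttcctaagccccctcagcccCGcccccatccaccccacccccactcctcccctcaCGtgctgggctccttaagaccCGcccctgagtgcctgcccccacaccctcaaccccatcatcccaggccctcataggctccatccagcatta
Dnmt3l, start 3, chr10:78055085-78055384, plus strand: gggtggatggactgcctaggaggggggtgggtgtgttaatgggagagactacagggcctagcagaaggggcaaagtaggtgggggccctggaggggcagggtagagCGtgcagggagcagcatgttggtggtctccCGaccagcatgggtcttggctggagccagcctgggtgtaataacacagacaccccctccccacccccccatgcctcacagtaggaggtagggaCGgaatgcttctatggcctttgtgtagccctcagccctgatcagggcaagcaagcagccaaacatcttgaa
Dnmt3b, chr2:153649199-153649498, plus strand: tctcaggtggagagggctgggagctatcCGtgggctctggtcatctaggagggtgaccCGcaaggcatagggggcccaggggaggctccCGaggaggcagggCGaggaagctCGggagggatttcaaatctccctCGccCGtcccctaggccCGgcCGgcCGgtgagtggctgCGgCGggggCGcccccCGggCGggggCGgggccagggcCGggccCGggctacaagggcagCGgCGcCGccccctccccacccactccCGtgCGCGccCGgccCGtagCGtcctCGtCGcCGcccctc

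The 3 Dnmt3l windows hold 6, 4 and 3 CpG pairs, more than 43.6%, 31.4% and 23.3% of the 32851 RefSeq windows of this length, whose median is 7. The first start opens the first of the 17 merged exons counted for the gene, the second lies in exon block 3 and the last in block 12. The Dnmt3b window holds 30, more than 88.3% of all windows. All 10 members matched the table, with 17 windows. Of the 14 windows of members other than Dnmt3l, 13 hold more CpG pairs than the median window, with a range from 2 at the first start of Dnmt1 to 57 at Tet2. The letters GGGCGG, read on both strands and known as a GC box, occur in 35.7% of all windows, in 10 of those 14 and in the first and the second window of Dnmt3l. GGGCGG holds a CpG, so the CpG counts and these matches overlap. A match is a description of the letters and not a site of binding.

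Tet1, the Tet enzyme best known from primordial germ cells and pluripotent cells (chr10:62804570-62902343, minus strand, 20091 exonic bases), had 3756, 5822, 6294 and 2118 counts. Scaled levels of 110 CPM (106–113), 186 (181–190), 159 (155–163) and 113 (108–117) follow from these. The 2 middle days were higher than the outer ones, whose intervals overlap, which no other member showed on this scale. The ratio of E12.5 to E11.5 was 1.69 (1.63–1.77), short of 2-fold, and Tet1 passed in the ratio of deposited TPM and with a threshold of 1.5-fold. From E12.5 to E13.5 the value was −0.22. E14.5 was lower than both middle days, with a log2 fold change of −0.48 (−0.55 to −0.41) against E13.5 and −0.71 (−0.78 to −0.64) against E12.5. The value of E14.5 against E12.5 passed the 1.5-fold threshold as well. Of 5204 genes holding 1000 counts or more in both E11.5 and E12.5, 97.0% had a lower fold change than Tet1 at that step. For the step from E13.5 to E14.5, with 3547 such genes, 1.04% did. Among all tested genes the shares were 88.6% and 8.06%.

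Tet2 (chr3:133463677-133545290, minus strand, 9948 exonic bases) had 3576, 2903, 4259 and 1833 counts, or 104, 92.5, 108 and 97.4 scaled CPM, a span of 1.16-fold. Tet3 (chr6:83362373-83457378, minus strand, 13235 exonic bases), the form that oxidizes the paternal genome in the zygote, had 8490, 5891, 7210 and 3110 counts. They scale to 248, 188, 182 and 165 CPM, and without E11.5 they spanned 1.14-fold. Log2 fold changes over the steps were −0.17, 0.22 and −0.13 for Tet2 and −0.40, −0.05 and −0.12 for Tet3, and E14.5 over E12.5 gave 0.09 and −0.17. With the ratio of deposited TPM, Tet2 was 0.11 at E12.5 versus E11.5 and Tet3 0.09 at E13.5 versus E12.5. Tet2 was −0.96 for E14.5 over E12.5 with total counts, so these directions depend on the scaling. With TMM, no value of these 2 genes reached 2-fold. Tet3 was the most abundant Tet gene per length in every library, with 54.0%, 43.4%, 42.4% and 44.8% of their summed TPM. Tet1 held 15.7%, 28.2%, 24.4% and 20.1%, and Tet2 held 30.3%, 28.4%, 33.3% and 35.1%. These shares take all exonic bases annotated for a gene as its length, 20091 for Tet1. Which of these bases were transcribed was not tested. By counts at E12.5, Tet1 had 5822, Tet3 5891 and Tet2 2903.

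Within a library and per exonic base, Tet1 stood at 0.520 of Tet2 at E11.5 (0.497–0.545). It stood at 0.993 a day later, at 0.732 the day after (0.704–0.761) and at 0.572 on the last (0.537–0.609). The ratio of Tet1 to Tet2 was thus higher on the middle days without any scaling between libraries. Such a ratio does not tell which of the 2 genes changed. The 2 middle libraries also had the lowest ribosomal RNA shares, 8.90% and 8.73% against 17.8% at E11.5 and 48.9% at E14.5. Whether these shares bear on the Tet1 ratios was not tested. Against Dnmt1, Tet1 stood at 0.160 (0.154–0.167), 0.272 (0.263–0.282), 0.254 (0.245–0.262) and 0.217 (0.205–0.230). Here the outer days lay apart, with E14.5 above E11.5. Tet3 to Tet2 gave 1.78 (1.72–1.86), 1.53 (1.46–1.60), 1.27 (1.22–1.32) and 1.28 (1.20–1.35) in the same order.

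Tdg, the glycosylase that removes the oxidized bases made by Tet enzymes (chr10:82629533-82650494, plus strand, 3523 exonic bases), had 2386, 1494, 1874 and 798 counts. Scaled to CPM these are 69.6 (66.9–72.5), 47.6 (45.2–50.1), 47.4 (45.2–49.5) and 42.4 (39.5–45.4). E11.5 lay above the later days, which spanned 1.12-fold. The ratio of E12.5 to E11.5 was 0.684 (0.641–0.730). Later log2 fold changes were −0.01 and −0.14, and −0.16 for E14.5 over E12.5. For E13.5 over E12.5 total counts gave 0.02 and the ratio of deposited TPM 0.12. Per exonic base Tdg stood at 3.62 times Tet1 at E11.5 (3.44–3.81) and at 1.46 times at E12.5 (1.38–1.55). The next days gave 1.70 (1.61–1.79) and 2.15 (1.98–2.33), higher than E12.5 and lower than E11.5. Processed pseudogenes of Tdg are near-identical to it, with 2968 bases at 98.7% identity in Tdg-ps, 1194 bases at 99.3% in Gm9855 and 1193 bases at 99.3% in Gm5597. Gm9855 had 81, 57, 53 and 22 counts, Tdg-ps and Gm5597 were not analysed here, and although the authors describe their mapped reads as unique, which copy the reads of a shared stretch were assigned to was not tested, so the Tdg counts are uncertain to that extent. The same holds for Uhrf1, of which Gm5648 holds 1590 bases at 98.3% identity. Exons of Glt8d2 on the opposite strand share 67 bases with Tdg, and Glt8d2 had 22, 20, 40 and 46 counts.

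Prmt5, which places symmetric dimethylation on arginines of histones and other proteins and works in germ cells with the repressor Prdm1 (chr14:54507182-54517470, minus strand, 2720 exonic bases), had 2073, 1765, 1905 and 854 counts. Its scaled levels were 60.5 CPM (57.9–63.2), 56.3 (53.7–58.9), 48.1 (46.0–50.4) and 45.4 (42.4–48.5). The log2 fold changes of the steps were −0.10 (−0.20 to −0.01), −0.23 (−0.32 to −0.13) and −0.07 (−0.19 to 0.05), the first 2 with counting intervals below 0. E14.5 over E12.5 gave −0.30, and with TMM all of these values were short of 2-fold. The first of these was 0.06 with total counts and 0.18 with the ratio of deposited TPM, so its direction depends on the scaling. Per exonic base its ratio to its obligate partner Wdr77 was 1.29 (1.22–1.37), 1.06 (0.999–1.13), 0.942 (0.887–0.999) and 1.01 (0.923–1.11) over the 4 days.

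**Figure D2:**
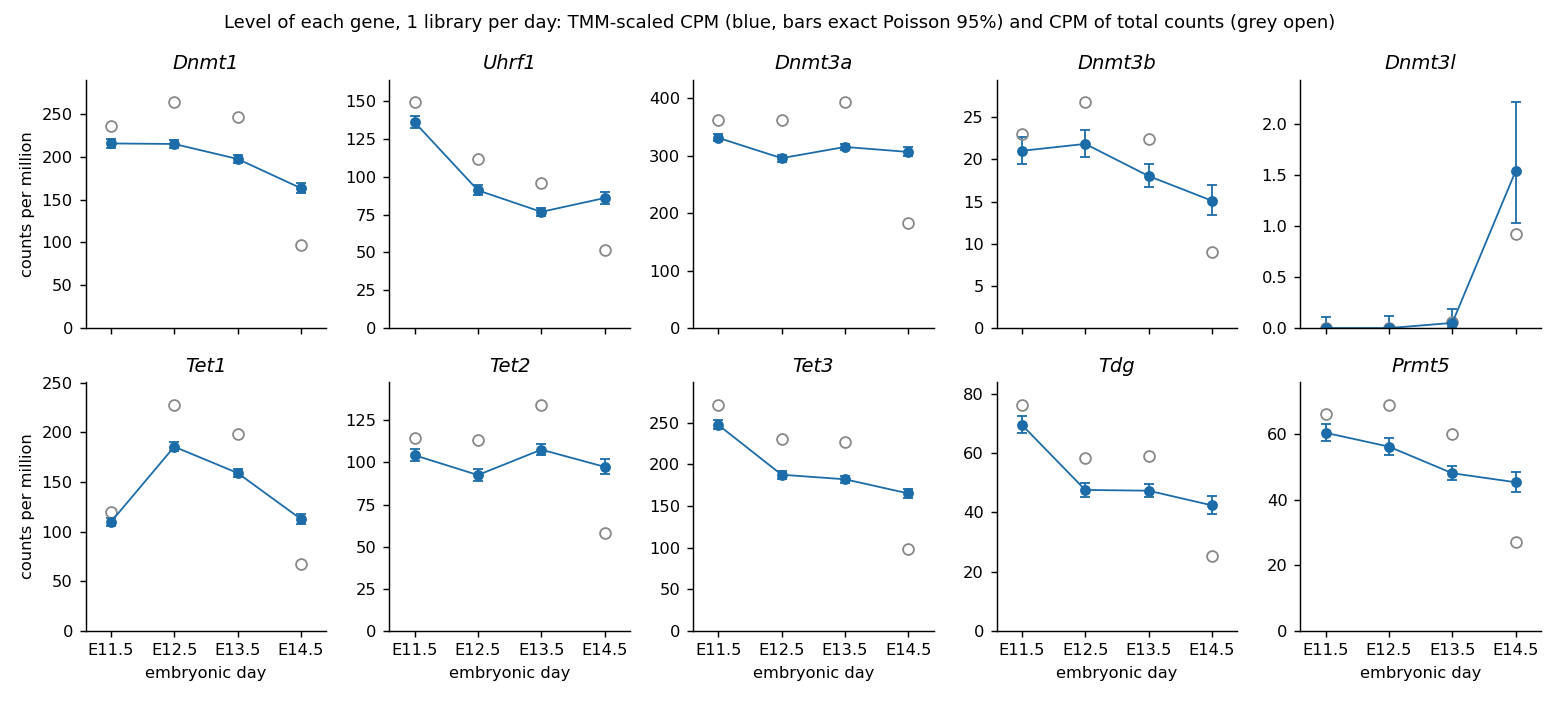
Levels of the 10 genes in the 4 libraries, each panel with its own vertical axis from 0. Blue points are TMM-scaled CPM with exact Poisson 95% intervals and grey open points are CPM of total counts, which drop at E14.5 in all members except Dnmt3l. Tet1 is highest at E12.5, and Dnmt3l reaches 1.54 scaled CPM at E14.5.

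Levels of different genes are compared per length here, in TPM within a library. The length is all exonic bases annotated for a gene, so this order and the ratios per exonic base depend on it. At E11.5 the order was Uhrf1 with 57.6 TPM, Dnmt1 with 52.6, Dnmt3a with 46.4, Prmt5 with 34.3, Tdg with 30.5, Tet3 with 28.9, Tet2 with 16.2, Tet1 with 8.42, Dnmt3b with 5.60 and Dnmt3l at 0. Tdg and Tet3 were the one pair of neighbours whose counting intervals overlapped. At E12.5 and E13.5 Dnmt1 led with 63.9 and 64.2 TPM, followed by Dnmt3a with 50.5 and 58.9 and Uhrf1 with 46.9 and 43.3. At E14.5 Dnmt3a led with 18.6 TPM, before Dnmt1 with 17.3 and Uhrf1 with 15.8. Tet3 and Tdg overlapped in every library, and Tet2 and Tet1 overlapped at E12.5 with 17.5 and 17.4 TPM. Prmt5 ranked 4, Dnmt3b 9 and Dnmt3l 10 in all 4 libraries. At E14.5 Dnmt3b lay above 71.5% of the 40999 listed features and Dnmt3l above 60.9%, but only 26021 of these features had any count there.

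**Figure D3:**
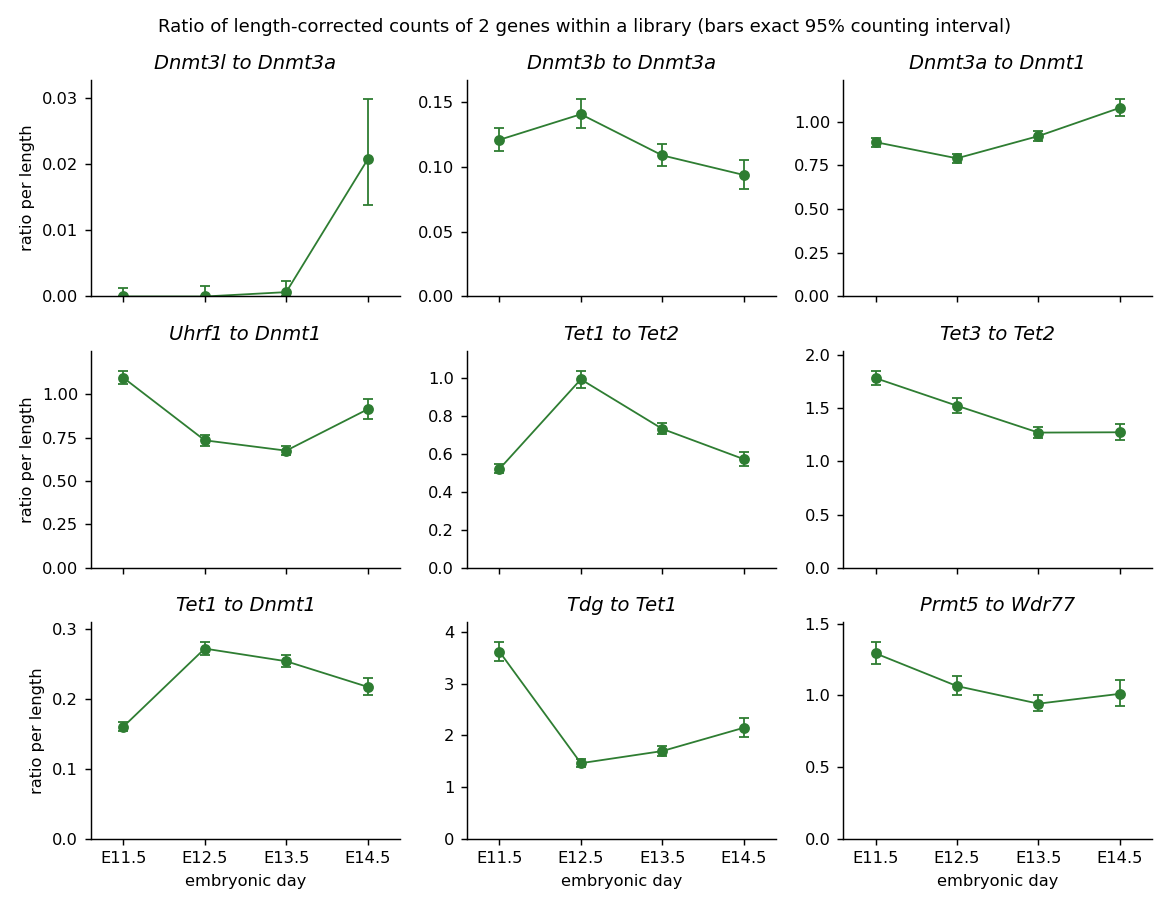
Ratio of the length-corrected counts of 2 genes within a library, for 9 pairs over the 4 libraries, with exact 95% counting intervals and vertical axes from 0. No scaling between libraries enters these values. Tet1 to Tet2 peaks at E12.5 at 0.993, Uhrf1 to Dnmt1 is lowest at E13.5 at 0.674, and Dnmt3l to Dnmt3a leaves the neighbourhood of 0 at E14.5.

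Genes that work with these enzymes are given as counts per list, to be read beside the shares of all tested genes above, which ran from 3.91% to 16.2%. The lists were not tested against each other or against the members. List counts are with TMM scaling unless another is named. Total counts shifted the median gene to −1.07 for E14.5 versus E13.5 and −1.04 for E14.5 versus E12.5. How many genes of a list pass at E14.5 therefore depends on the scaling. Of 10 partners of maintenance methylation, among them Hells, a chromatin remodeller, and Usp7, which deubiquitinates Uhrf1 and Dnmt1, 0 of 10 tested passed 2-fold in any comparison. Of 14 genes of the methyl donor cycle, such as Mat2a, which makes S-adenosylmethionine, 0 of 14 passed in any comparison, and of 8 genes that make or compete with 2-oxoglutarate, the cosubstrate of Tet enzymes, 0 of 8. The list medians at E12.5 versus E11.5 were −0.13, 0.03 and 0.25. Among 13 genes of base excision repair downstream of Tdg, 1 rose at E12.5 and 0 passed in the other comparisons. That gene had fewer than 100 counts. Among 15 readers of methylated or unmethylated CpG, 1 fell at E12.5, Cxxc4, a CxxC protein derived from the same ancestral locus as Tet2, from 1158 to 503 counts with a log2 fold change of −1.07 (−1.23 to −0.92).

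Of 11 listed partners and rivals of de novo methylation, Zfp42, a zinc finger protein of pluripotent cells, rose at E12.5 from 27 to 161 counts with a log2 fold change of 2.70 (2.11 to 3.35) and was 1.03 lower on that scale at E14.5 than at E12.5. The other 10 did not pass at E12.5. Of 7 partners of Prmt5, Prdm1, the repressor that specifies germ cells, rose at E12.5 from 269 to 962 counts with a log2 fold change of 1.97 (1.77 to 2.17), and fell between E12.5 and E14.5 from 962 to 267 counts, with a log2 interval of −1.30 to −0.90. The other 6 passed in no comparison. Of 6 tested cytidine deaminases and Gadd45 genes, 1 was higher at E12.5 and 1 lower at E14.5 than at E12.5, with fewer than 100 counts.

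Of 6 tested genes on a list of germ cell factors, 5 rose at E12.5, with a list median of 2.61, where 7.92% of all tested genes rose. The list was drawn up for a bearing on demethylation, which was not tested for its genes. Between E13.5 and E12.5, 0 of 6 passed, with a median of −0.11. Dppa3, which keeps Uhrf1 out of the nucleus in oocytes, went from 106 to 1062 counts, a log2 fold change of 3.45 (3.16 to 3.75), and Prdm14, which represses de novo methyltransferases in early germ cells, from 31 to 200 counts, 2.81 (2.27 to 3.41). Dppa5a, an RNA-binding protein of pluripotent cells, rose by 3.09 (2.88 to 3.31) and Dnd1, another of germ cells, by 2.41 (2.08 to 2.75). From E13.5 to E14.5, 1 of 7 rose and 2 fell. The gene that rose, Nanos2, had 0, 0, 12 and 75 counts, and like Dnmt3l it was tested only through the library in which it was high. Prdm14 fell from 223 to 38 counts, a log2 fold change of −1.46, and Tfap2c, a transcription factor of primordial germ cells, from 499 to 47, −2.32 (−2.78 to −1.89). Between E14.5 and E12.5, 1 of 7, again Nanos2, rose and 3 fell, Tfap2c by −2.57, Prdm14 by −1.65 and Dppa5a by −1.20.

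Of 12 germline genes that somatic cells keep silent by promoter methylation, 10 rose and 1 fell at E12.5, with a list median of 3.96. At E13.5, 3 rose, 0 fell and 9 did not pass, and from E13.5 to E14.5, 5 rose, 0 fell and 7 did not pass. Of all tested genes, 7.92%, 2.53% and 5.9% rose at these steps. Dazl, an RNA-binding protein of germ cells, went from 53 counts at E11.5 to 4555 at E12.5, a log2 fold change of 6.55 (6.16 to 6.97). Mael, of the piRNA pathway, rose by 5.78 at that step, Hormad1, a meiotic axis protein, by 4.35 and Ddx4, a germ cell helicase, by 4.28. At E13.5, Sycp1, of the synaptonemal complex, rose by 2.19, Taf7l, a germline form of a general transcription factor, by 2.15 after it had fallen from 105 to 24 counts at E12.5, and Sycp3, also of that complex, from 66 to 202 counts. At E14.5, Taf7l rose by 2.50 (2.21 to 2.80), Sycp3 by 1.80 (1.55 to 2.06), Mael by 1.25 and Tdrd1, a Tudor protein, by 1.19. Between E14.5 and E12.5, 8 of 12 were higher and 0 lower, Taf7l by 4.64, Sycp1 by 3.25, Sycp3 by 3.07 and Mael by 2.21. Scaled by total counts, 1 of the 12 was past 2-fold higher and 2 lower from E13.5 to E14.5, so the direction at this step depends on the scaling. Between E14.5 and E12.5, total counts left 4 of 12 higher and 0 lower, and the ratio of deposited TPM 3 higher and 3 lower.

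Markers of cell types are given over the same days. Their counts past 2-fold are with TMM scaling, and those of E14.5 depend on the scaling as for the lists above. The 10 germ cell markers summed to 79.5, 421, 487 and 366 scaled CPM, with none at 0. Kit was the most abundant at E11.5, with 51.5 of the 79.5, and Dazl from E12.5 on. At E12.5, 8 of 10 rose and 0 fell, and from E13.5 to E14.5 0 rose and 2 fell, Tfap2c and Nanog. At E13.5 0 of 10 passed, and between E14.5 and E12.5 3 fell. Of the markers that rose at E12.5, Dazl and Ddx4 are also on the list of germline genes above. Dppa3, Dnd1 and Tfap2c are also on that of germ cell factors, so these lists overlap. The 9 markers of mesonephros and nephric duct summed to 251, 119, 107 and 90.3 scaled CPM, with none at 0 and Emx2, which the gonad also expresses, the most abundant throughout. At E12.5, 6 of 9 fell and 0 rose, at E13.5 2 of 8 fell, from E13.5 to E14.5 3 of 8 rose, and between E14.5 and E12.5 1 of 9 rose. The 13 markers of replicating cells, whose maintenance enzymes act at the fork, summed to 2189, 2192, 1956 and 1812 scaled CPM, with Mki67 the most abundant and none at 0. Of these, 0 of 13 passed in any comparison with TMM, and their list median was −0.36 at E14.5 versus E12.5.

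The 8 Sertoli cell markers summed to 97.5, 714, 635 and 661 scaled CPM. Sox9 was the most abundant at E11.5, with 80.6 of the 97.5, and Amh later. At E12.5, 7 of 8 rose, and 0 of 8 passed in the other comparisons. The 7 pregranulosa cell markers summed to 238, 439, 475 and 381, led by Lhx9, and 5 of 7 rose at E12.5, 0 passed at E13.5, 1 fell from E13.5 to E14.5 and 1 rose between E14.5 and E12.5. The 5 fetal Leydig cell markers summed to 12.8, 164, 680 and 1121, led by Cyp11a1, Hsd3b1 and, on the last 2 days, Cyp17a1, with Insl3 at 0 at E11.5, and 5 of 5 rose at E12.5, at E13.5 and between E14.5 and E12.5, while 0 of 5 passed from E13.5 to E14.5. The 7 endothelial markers summed to 420, 400, 302 and 276, led by Kdr at E11.5 and Cdh5 later, and 0 of 7 passed in any comparison. The 6 macrophage markers summed to 62.4, 24.8, 23.7 and 34.0, led by Mrc1 at E11.5 and E12.5 and by Csf1r later, and 6 of 6 fell at E12.5, 0 passed at E13.5 and 1 was higher in each comparison of E14.5. The 11 erythroid markers summed to 2061, 3604, 3527 and 3320, led by Hbb-y, Hbb-y, Hba-a2 and Hbb-bs, with 4 higher and 2 lower at E12.5, 4 higher and 3 lower at E13.5, 0 higher and 3 lower from E13.5 to E14.5, and 5 higher and 3 lower between E14.5 and E12.5. Apart from Insl3, none of these was at 0. In a pool of whole gonads, fewer cells of a type and less RNA per cell cannot be told apart. Whether a marker was also expressed by other cells was not tested, so the sums are not cell numbers. The part of these cell types in the levels of the methylation enzymes was not tested.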

How the data were processed

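Total RNA of pooled gonads was sequenced by the authors as SEQuoia Complete stranded libraries with UMIs after depletion of ribosomal RNA. Per the authors' methods, reads were aligned to mm10 with STAR, deduplicated with UMI-tools and counted per gene with featureCounts. The deposited counts were used as they stand. The deposited TPM and RPKM were made by the authors from those counts and exon lengths, and were checked against them, and RPKM values are not printed. Tool versions, the annotation release and the strand setting are not given in the sources used here. The study's edgeR thresholds were |logFC| ≥ 1 and FDR ≤ 0.05 with no stated dispersion, so the fold threshold was kept and no p-value is given.

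The programs were edgeR 4.0.16, DESeq2 1.42.0 (both in R 4.3.3), scipy 1.17.1, pandas 2.3.3, numpy 2.4.6, matplotlib 3.10.9 (all in Python 3.11.15) and blastn 2.17.0 with at least 90% identity over 300 bases of GENCODE M21 transcripts. Genes kept by filterByExpr for a pair were scaled by TMM, with a prior count of 0.125. The steps were tested on simulated pairs of libraries with counting error only, drawn from a shared profile in which some genes were changed. These held neither the difference in ribosomal share between days nor variation between pools. Alternatives were DESeq2 size factors, total counts, TMM without 49 ribosomal and most abundant features, the ratio of deposited TPM, no filter at all, a minimum of 10 counts in each of the libraries, a prior count of 2, a 1.5-fold threshold, and an edgeR exact test at a preset biological coefficient of variation of 0.1 or 0.4 with FDR ≤ 0.05. Named were all members, genes of lists other than cell-type markers past 2-fold with at least 100 counts (at most the 4 largest per list and comparison), and the 3 genes of most similar pattern for a member spanning at least 2-fold. A few others are named as examples of a list, as the most abundant marker, or, for Nanos2 with fewer than 100 counts, to show how it entered the test. The members and lists were chosen with earlier results of these data known. Dnmt3c and the macrophage marker Adgre1 were not analysed here.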

Additional observations from a re-analysis of the deposited data

How the results depend on the processing

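Each time point has 1 library, so no replicate could be left out. No paired analysis was possible because there is 1 library per day and no label links the pools of different days. The number of members past the threshold, 0, 0 and 1 for the 3 steps in order of age and 1 for E14.5 versus E12.5, was as in the report with DESeq2 size factors, TMM without ribosomal and most abundant features, no filter, a prior count of 2 and an exact test at a variation of 0.1. With total counts it was 9 for E14.5 versus E13.5 and 8 for E14.5 versus E12.5, and with the ratio of deposited TPM 1 for E12.5 versus E11.5, 10 for E14.5 versus E13.5 and 10 for E14.5 versus E12.5. With the 1.5-fold threshold it was 1 for E12.5 versus E11.5 and 2 for E14.5 versus E12.5. With at least 10 counts in both libraries it was 0 in both comparisons of E14.5, since Dnmt3l is then not tested, and with an exact test at a variation of 0.4 it was 0 for E14.5 versus E13.5.

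Over all tested genes, 3113, 748, 1391 and 1937 passed in the same order. The 1.5-fold threshold gave 4858, 1685, 2299 and 3298, and an exact test at a variation of 0.4 gave 286, 1, 31 and 72. A variation of 0.1 gave 360 for E13.5 versus E12.5 and 925 for E14.5 versus E13.5, and at least 10 counts in both gave 488 for E13.5 versus E12.5. For E14.5 versus E13.5, total counts gave 11533, of which 2.40% were higher against 80.5% with TMM, and the ratio of deposited TPM gave 16903, of which 0.834% were higher. For E14.5 versus E12.5 they gave 10395, with 3.88% higher against 77.0%, and 15396, with 1.56% higher. With the ratio of deposited TPM, 66.2% were higher for E12.5 versus E11.5, against 48.9%, and 77.3% for E13.5 versus E12.5, against 64.8%. Why these counts move was not tested beyond the shift of the median gene given in the report. Dnmt3l, the one called member, was higher under every scaling. Over the 4 comparisons in the order above, the log2 fold change of 2, 1, 1 and 2 members changed sign with total counts, and of 4, 3, 1 and 2 with the ratio of deposited TPM. With 1 library a day, the spread between pools is unknown, and Dnmt3l rests on 29 counts.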
